A study of Mus musculus with 8 samples.

Results

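The olfactory receptor cluster of mouse chromosome 2 was described here in liver DNA, as the HpaII sites listed for all 8 livers of the series at chr2:85000000-90200000 (mm9). The interval spans 5.2 Mb and held 1029 such sites, of 1310003 listed for all 8 livers across the genome. The livers came from C57BL/6J mice on a high-fat diet, which was supplemented with lingonberries in 4 mice and given by itself in the other 4 (HFD). Both groups share the high-fat diet, and no group on a low-fat diet was analysed here. The labels give no age, sex, batch or pairing, and whole liver holds several cell types whose methylation cannot be told apart in these values. The cluster was compared with the 5 Mb on each side, which held 5720 listed sites and are called the flanks.

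Methylation was measured by HELP-tagging. HpaII cuts the sequence CCGG only when its central CpG is unmethylated, MspI cuts it in either state, and short tags from the cut ends are sequenced. The m-score sets the HpaII tags of a site against its MspI tags as an angle, with 0 at the methylated end (no HpaII tag) and 100 at the unmethylated end. All 8 libraries were scored against 1 MspI reference scaled to the HpaII total of each library, so a score is read against the remainder of its own library and is no absolute level. An error of that reference at a site is common to all livers, and the tests cover spread between mice only.

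Olfactory receptors are G protein-coupled receptors of the nasal epithelium, where each sensory neuron expresses a single receptor gene and keeps the others silent. Their genes lie in tandem arrays, many copies are pseudogenes, and the arrays are AT-rich and poor in CpG islands. CpG islands are CpG-rich stretches that are commonly unmethylated, whereas scattered CpG sites are mostly methylated in somatic tissue. RNA was not measured in this series, so silence of the cluster in liver is background and was not checked here.

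In RefSeq (GRCm38.p6) the run of receptor genes from Olfr987 to Olfr1274 lies between Lrrc55 and Ptprj and holds 293 olfactory receptor genes, of which 222 are protein coding and 71 are pseudogenes. Only 3 other protein-coding genes lie in the run, namely Fads2b, Pramel7 and Pramel6. No annotation of the mm9 build was used, so gene names and neighbour order come from GRCm38.p6, and no mm9 site was assigned to a gene. The ends of the mm9 interval were not matched to those of the run. The interval may therefore hold DNA outside the run, and the flanks may hold receptor genes. A window at the annotated gene start (250 bases before to 50 after it) was available for 186 of the receptor genes, with 187 windows in all. Where a gene model starts at the coding sequence, its window need not hold the promoter. The comparison below is therefore of annotated starts and not of known promoters. Of these windows, 2 (1.07%) held a CCGG, against 52.8% of the 32851 windows of all genes. They averaged 1.06 CpG, against 12.4 over all genes, and 35.8% held no CpG, against 5.43% of all. Their GC content averaged 32.0%, against 53.8% over all genes. A HELP-tagging site needs a CCGG, so the other receptor windows hold no site that the assay could read.

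The windows below show this, with every CpG and CCGG in capitals. Olfr1009 (GRCm38.p6 chr2:85721157-85721456, plus strand) and Olfr1055 (chr2:86347715-86348014, minus strand) are the 2 receptor windows with a CCGG, and Olfr1274 (chr2:90400390-90400689, plus strand) ends the run. Ptprj encodes a receptor-type tyrosine phosphatase, and a CpG-rich window of this neighbouring gene (chr2:90580546-90580845, minus strand) is shown as a contrast. It is not typical of the non-receptor windows nearby, whose counts follow the sequences. All are read 5′ to 3′ on the strand of the gene, and their coordinates were not converted to the mm9 positions used elsewhere.
Olfr1009: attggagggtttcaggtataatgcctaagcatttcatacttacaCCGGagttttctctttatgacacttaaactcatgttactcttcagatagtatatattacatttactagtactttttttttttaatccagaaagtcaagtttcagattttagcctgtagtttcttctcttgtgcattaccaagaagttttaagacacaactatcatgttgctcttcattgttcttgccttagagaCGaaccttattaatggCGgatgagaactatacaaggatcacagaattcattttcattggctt
Olfr1055: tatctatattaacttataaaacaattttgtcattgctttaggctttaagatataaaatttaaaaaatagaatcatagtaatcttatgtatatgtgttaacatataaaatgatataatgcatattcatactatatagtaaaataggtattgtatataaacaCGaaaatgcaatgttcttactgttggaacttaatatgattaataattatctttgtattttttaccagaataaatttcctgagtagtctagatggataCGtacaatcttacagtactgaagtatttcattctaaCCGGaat
Olfr1274: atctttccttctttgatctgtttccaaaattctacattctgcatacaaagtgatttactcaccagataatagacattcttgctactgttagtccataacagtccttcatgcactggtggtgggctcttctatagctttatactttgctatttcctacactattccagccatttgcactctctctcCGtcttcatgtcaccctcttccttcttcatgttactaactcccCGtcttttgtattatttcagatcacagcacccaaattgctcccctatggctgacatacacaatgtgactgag
Ptprj: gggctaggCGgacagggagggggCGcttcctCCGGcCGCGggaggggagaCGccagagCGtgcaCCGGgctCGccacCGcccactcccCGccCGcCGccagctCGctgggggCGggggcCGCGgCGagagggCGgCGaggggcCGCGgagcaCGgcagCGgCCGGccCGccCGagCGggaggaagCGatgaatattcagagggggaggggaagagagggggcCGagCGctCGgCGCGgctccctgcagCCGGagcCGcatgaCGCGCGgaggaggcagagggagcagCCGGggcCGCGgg
The windows of Olfr1009 and Olfr1055 hold 3 CpG and 1 CCGG each, and that of Olfr1274 holds 2 CpG and no CCGG. The Ptprj window shown holds 42 CpG and 5 CCGG. Another Ptprj window (chr2:90479125-90479424, minus strand) holds 6 CpG and 1 CCGG. The windows of Lrrc55, Fads2b, Pramel7 and Pramel6 hold 4, 3, 1 and 3 CpG and no CCGG, so low CpG counts were not limited to receptor genes.

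HpaII sites were sparse in the cluster and hard to read. There were 198 listed sites per Mb in the cluster, against 397 in the proximal flank (towards the centromere) and 747 in the distal flank. The files number all HpaII sites of the build in order, and 1821 such numbers fall in the cluster. Of these, 56.5% were listed for all 8 livers, against 68.2% in the proximal flank, 89.6% in the distal flank and 82.2% across the genome. Tags shared between several positions, seen as fractional values, occurred at 412 cluster sites (40.0%), against 18.8% in the proximal flank, 6.29% in the distal flank and 11.5% across the genome. The median cluster site had 9.0 MspI tags, against 15.5 in the proximal and 20 in the distal flank. With no other listed site within 500 bp, 66.8% of cluster sites were isolated, against 47.6% in the proximal and 35.3% in the distal flank. No cluster site had 5 or more such neighbours, whereas 195 sites of the proximal and 590 of the distal flank did.

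Levels were compared at the 489 cluster sites with at least 10 MspI tags. The other 540 had fewer, and a single HpaII tag moves their score far. Libraries held 6121989 to 16076961 HpaII tags in the lingonberry group and 5877080 to 7428108 in the HFD group, and 3 of the lingonberry libraries were deeper than every HFD library. The 489 sites averaged 1.76 to 3.94 HpaII tags in lingonberry livers and 2.04 to 2.09 in HFD livers, with a median of 0 or 1 tag. At this depth single sites are read coarsely, and the means below rest on many sites. Tags were amplified without molecular identifiers, so they are not independent molecules.

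The cluster lay closer to the methylated end than its flanks. Flank sites were weighted so that each number of neighbours had the share it has in the cluster. The mean m-score was 14.8, 14.2, 14.9 and 14.9 in the cluster of the 4 lingonberry livers, against 19.5, 19.6, 20.8 and 20.1 in their matched flanks. In the 4 HFD livers it was 16.2, 17.5, 18.97 and 16.1 in the cluster, against 21.5, 22.2, 23.4 and 21.0 in matched flanks. Cluster and flanks did not overlap within either diet, and in every liver the cluster was 4.41 to 5.93 lower. The cluster averaged 15.97 ± 1.61 and the matched flanks 21.0 ± 1.34 (SD, n = 8), a difference of -5.05 ± 0.49 (SD of the 8 differences). The two-sided exact sign-flip test over the 8 livers gave p = 0.0078, the smallest it can give, and the adjusted p over the 10 comparisons by place was also 0.0078. The difference was -3.09 against the proximal flank alone and -6.21 against the distal flank alone, with an exact p of 0.0078 for each. Without the match for neighbours it was -14.73, and with one angle from pooled tags per liver it was -12.24, again with an exact p of 0.0078 for each.

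**Figure D1:**
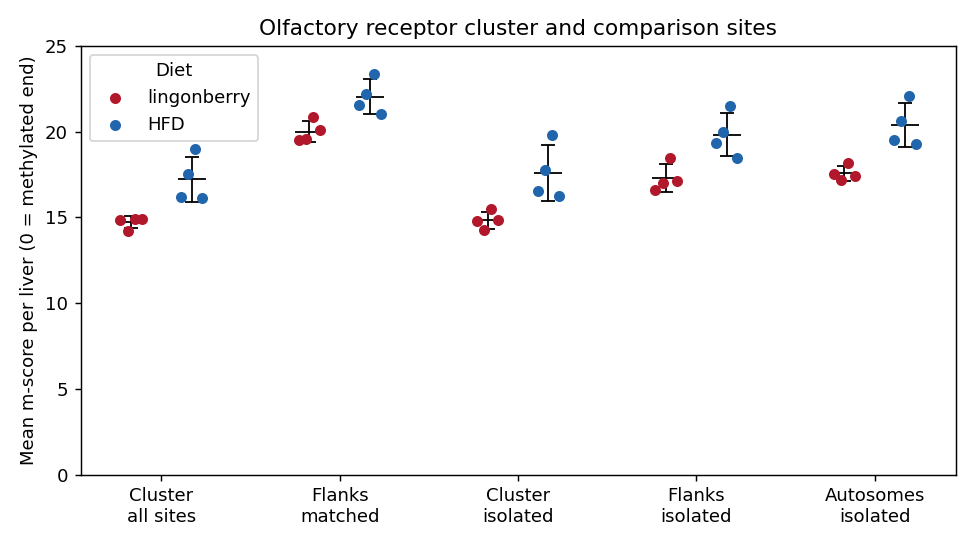
Mean m-score per liver (y axis, 0 = methylated end) for the cluster, the flanks matched for neighbours, and isolated sites of the cluster, the flanks and the other autosomes (x axis). Points are livers, lingonberry left of HFD, and bars give the mean and SD of 4 livers; the cluster averaged 15.97 and its matched flanks 21.0 over the 8 livers.

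The lower mean came with fewer sites of intermediate and high score. In a liver, 75.03% ± 3.39 of cluster sites scored below 25, against 67.3% ± 3.00 of matched flank sites (SD, n = 8 livers). The classes from 25 to 75 held 22.6% ± 3.10 of cluster sites and 27.4% ± 2.39 of matched flank sites. At 75 or above lay 2.38% ± 0.76 of cluster sites and 5.30% ± 0.70 of matched flank sites. No HpaII tag was seen at 43.6% ± 6.4998 of cluster sites and 37.5% ± 3.83 of matched flank sites, a share that also depends on depth. Each of these 4 differences had the same sign in all 8 livers (exact sign-flip test, p = 0.0078, adjusted p = 0.0078). By the mean of a site over the 8 livers, 391 of the 489 sites (80.0%) lay below 25, 90 (18.4%) from 25 to 75 and 8 (1.64%) at 75 or above. The matched flanks had 69.7%, 26.2% and 4.09% in these classes. In no liver did 50 cluster sites (10.2%) give an HpaII tag, against 7.12% of matched flank sites.

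**Figure D2:**
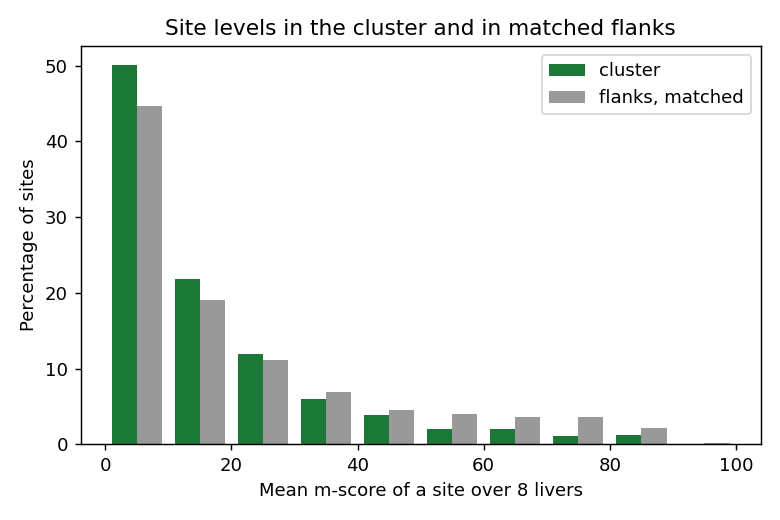
Percentage of sites (y axis) by mean m-score over the 8 livers in steps of 10 (x axis), for the 489 cluster sites and the flank sites weighted to the same numbers of neighbours. The lowest step holds 50.1% of cluster and 44.6% of matched flank sites, and from 50 upward each step holds a smaller share of the cluster than of the flanks.

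Site density and level rose together in the flanks and did not in the cluster. At isolated sites the mean m-score was 16.2 ± 1.85 in the cluster (334 sites), 16.3 ± 1.79 in the proximal flank and 20.03 ± 1.64 in the distal flank (SD, n = 8 livers). With 1 neighbour it was 14.3 ± 1.85 in the cluster (89 sites), against 21.5 ± 1.06 and 22.7 ± 1.05 in the proximal and distal flanks. With 2 neighbours it was 16.3 ± 1.41 (31 sites), against 22.6 ± 0.90 and 27.6 ± 1.08. With 3 neighbours it was 21.8 ± 0.53 (21 sites), against 32.8 ± 0.77 and 34.0 ± 1.07. With 4 neighbours it was 10.9 ± 2.43 (14 sites), against 41.2 ± 2.09 and 40.1 ± 1.29. The gap between cluster and flanks was thus wider at each of 1 to 4 neighbours than at isolated sites. Several of these means mix unlike sites, since 41.9% of cluster sites with 2 neighbours, 61.9% with 3 and 42.9% with 4 carried shared tags, and identical values listed at several positions count more than once. At unshared sites with 2 neighbours the cluster averaged 22.0 (18 sites), against 30.5 in the proximal and 27.7 in the distal flank. At unshared sites with 3 neighbours it averaged 16.7 (8 sites), against 38.9 and 34.8 in the proximal and distal flanks. At unshared sites with 4 neighbours it averaged 5.32 (8 sites), against 56.7 and 39.97. Shared sites of the cluster with 2, 3 and 4 neighbours averaged 8.29, 25.0 and 18.3.

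Over the 155 cluster sites with 1 to 4 neighbours the mean m-score was 15.4 ± 1.24, against 26.3 ± 0.73 at matched flank sites, a difference of -10.87. In the cluster, sites with neighbours differed from isolated sites by -0.80 ± 1.04, whereas in the matched flanks they were 7.72 ± 1.17 higher. The difference of these differences, -8.52 ± 0.59, was below 0 in all 8 livers (exact sign-flip test, p = 0.0078, adjusted p = 0.0078), a comparison chosen after the values were seen. It was -8.10 without sites of shared tags and -4.10 with neighbours counted within 1000 bp (exact p = 0.0078 for each). Isolated cluster sites were -2.35 ± 0.47 from isolated flank sites (exact p = 0.0078), and -2.76 ± 0.26 from the 329525 isolated sites of the other autosomes. Against the proximal flank alone the difference at isolated sites was -0.058 (exact sign-flip test, p = 0.727). At the 8 isolated cluster sites with 50 or more MspI tags, the sign turned, at 5.92 (exact p = 0.0078).

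**Figure D3:**
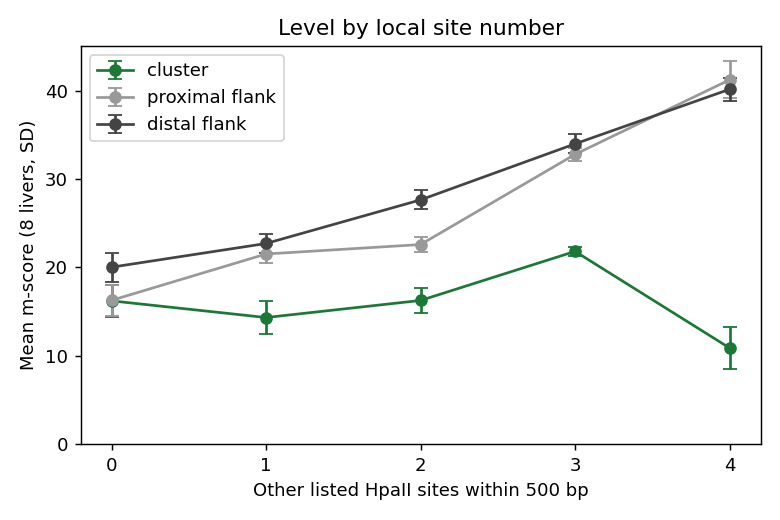
Mean m-score (y axis) by number of other listed HpaII sites within 500 bp (x axis) in the cluster, the proximal flank and the distal flank, with points for the mean and bars for the SD over 8 livers. The cluster stays between 10.9 and 21.8, while the flanks reach 41.2 and 40.1 at 4 neighbours.

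The denser spots of the cluster included low and high runs. Joining listed sites at most 500 bp apart gave 8 runs with at least 3 readable sites in the cluster, against 83 in the proximal and 239 in the distal flank. In the cluster 6 of the 8 runs averaged below 25, against 59.0% of runs in the proximal and 43.9% in the distal flank. Runs with identical values were listed repeatedly in the proximal flank, and counted once they left 71 runs there, of which 52.1% averaged below 25 and 40.8% averaged 50 or above. The remaining 2 runs of the cluster averaged 50 or above, against 34.9% in the proximal and 37.7% in the distal flank. Without any shared tag there were only 2 runs in the cluster, 1 below 25 and 1 at 50 or above. The first high run, chr2:85037915-85038711, had 4 unshared sites and averaged 72.0 ± 3.36 in lingonberry livers and 71.6 ± 1.95 in HFD livers (SD, n = 4 each). The second, chr2:87366064-87366335, averaged 82.1 ± 3.18 in lingonberry livers and 82.1 ± 1.05 in HFD livers, and all 3 of its readable sites carried shared tags. Which of the positions that share these tags was read cannot be told apart. Among the low runs, chr2:87336866-87337335 was the best read, with 4 unshared sites and a median of 48.5 MspI tags. It averaged 2.95 ± 2.09 in lingonberry livers and 6.52 ± 5.04 in HFD livers, and its highest site averaged 8.42. The runs were sorted by these same means, so the gap between the 2 kinds follows from the sorting. With so few runs no test was made.

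Levels were higher on average at the ends of the interval than inside it. These ends were set by coordinates and need not be those of the receptor run. Whether the start of the interval holds Lrrc55, which lies before the run, was not determined. The first and last 500 kb (135 sites) averaged 19.8 ± 1.92, against 14.4 ± 1.57 in the interior with neighbours matched (SD, n = 8 livers). The difference of 5.39 ± 0.71 was above 0 in all 8 livers (exact sign-flip test, p = 0.0078, adjusted p = 0.0078). In steps of 100 kb, 20 of the 52 bins of the cluster had at least 10 readable sites, and their means ran between 8.43 and 27.5 with a median of 15.5. The 92 such bins of the flanks ran between 6.77 and 62.8 with a median of 24.2. The highest of these cluster bins was the first (chr2:85000001-85100000), with 26.6 ± 1.46 in lingonberry livers and 28.5 ± 1.64 in HFD livers. The start and the end were not tested apart. Along the last 500 kb the bins averaged 12.3, 15.3, 16.5, 22.0 and 21.7. Some interior bins with fewer than 10 sites lay higher, such as chr2:85800001-85900000 (30.2, 6 sites) and chr2:88700001-88800000 (25.6, 8 sites). The lowest cluster bin with at least 10 sites was chr2:87000001-87100000, with 7.28 ± 1.22 in lingonberry livers and 9.57 ± 4.04 in HFD livers. Low bins were not limited to the cluster, as 29 flank bins lay below the median of the cluster bins.

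**Figure D4:**
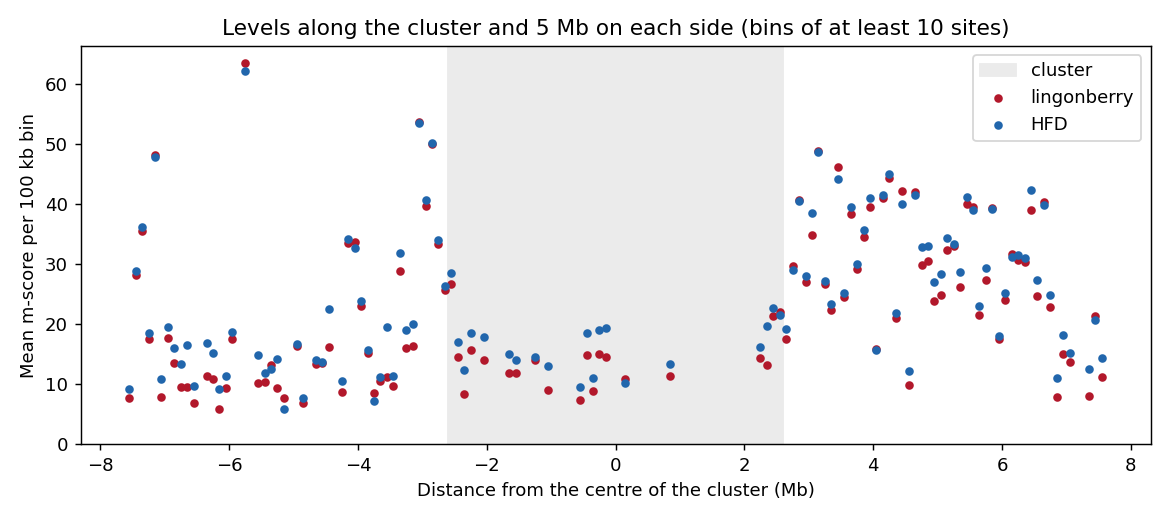
Mean m-score per 100 kb bin with at least 10 readable sites (y axis) by distance from the centre of the cluster in Mb (x axis), as the mean of 4 lingonberry and of 4 HFD livers, with the cluster shaded. Cluster bins lie between 8.43 and 27.5 over the 8 livers, with the highest at the left border, and flank bins spread between 6.77 and 62.8.

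The 5 whole 1 Mb bins inside the cluster averaged, in order along the chromosome, 19.8, 13.3, 14.7, 15.2 and 13.9. From the lowest of 2397 autosomal bins they ranked 483, 39, 108, 140 and 61. The median over all autosomal bins was 26.3. Among the 774 autosomal bins in the same range of isolated sites (53.0% to 80.0%), the median was 19.2, and 91 lay below the cluster's median of 14.7. A bin of the proximal flank, chr2:82000001-83000000, averaged 11.7 and ranked 7, below each of the cluster's bins.

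A few cluster sites were largely unmethylated in every liver. Of the 8 sites with a mean of 75 or above, 4 lay in the first 500 kb. A mean of 50 or above was seen at 31 sites. These were 10 of 74 readable sites in the first 500 kb, 7 of 61 in the last 500 kb and 14 of the 354 in the interior. The 7 in the last 500 kb include 2 pairs of positions with identical tags and so are 5 measurements, of which 2 are unshared. Among unshared sites the counts were 10 of 68 in the first 500 kb, 2 of 29 in the last 500 kb and 7 of 270 in the interior. The highest unshared site, chr2:85093331, scored 87.3, 89.6, 92.3 and 85.5 in lingonberry livers, against 86.3, 89.8, 93.4 and 83.8 in HFD livers. Close behind, chr2:85038711 scored 86.0, 85.8, 90.4 and 90.7 in lingonberry livers, against 88.9, 87.5, 83.8 and 92.2 in HFD livers. The diets overlapped at both sites. The site at chr2:85092999 scored 83.7, 62.4, 86.1 and 88.8 in lingonberry livers, against 86.2, 89.8, 89.8 and 89.5 in HFD livers. Its low value in lingonberry liver 2 rests on 7 HpaII tags. The other 7 of the 10 highest unshared sites averaged 64.4 to 82.9. They lay at chr2:85860692, 85038520, 85566024, 86380946, 85090490, 85400548 and 85037915, so 9 of the 10 were in the first Mb of the cluster. Those at 85037915, 85038520 and 85038711 belong to the same run of neighbouring sites. Whether the sites near the start lie among receptor genes was not determined. Of the 10, 4 were isolated, against 68.3% of all readable cluster sites.

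**Figure D5:**
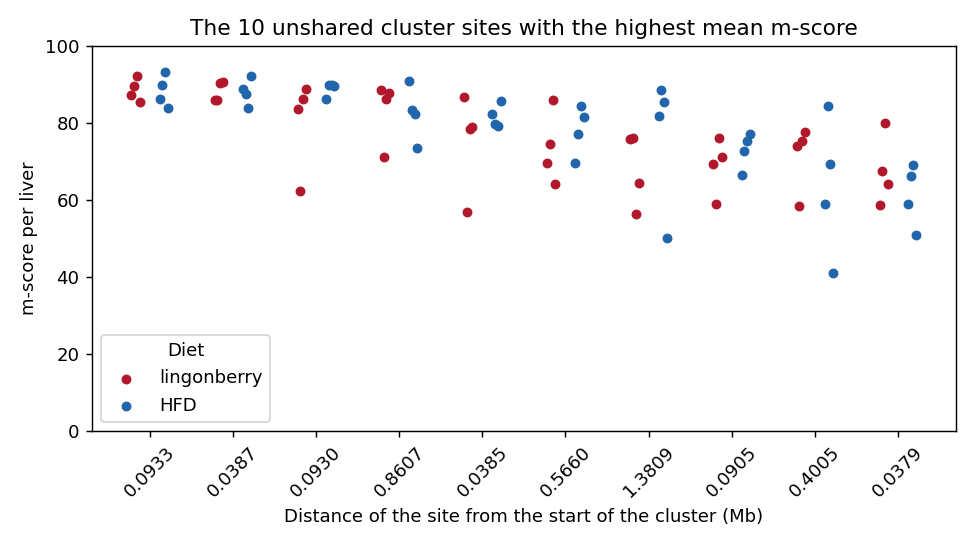
The m-score per liver (y axis) at the 10 unshared cluster sites with the highest means, ordered by mean and marked by distance from the start of the cluster in Mb (x axis). Points are livers, lingonberry left of HFD, and the 2 diets overlap at all 10 sites.

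The diet difference of the cluster did not pass after adjustment and was close in size to that of isolated sites elsewhere. The cluster averaged 14.7 ± 0.34 in lingonberry livers and 17.2 ± 1.34 in HFD livers (SD, n = 4 each), a difference of -2.49 (SE 0.69). The groups did not overlap (two-sided exact permutation test, p = 0.0286, the smallest for 4 against 4), but the adjusted p over the 11 diet comparisons was 0.0786. The matched flanks averaged 19.997 ± 0.62 in lingonberry livers and 22.0 ± 1.01 in HFD livers, a difference of -2.03 (exact p = 0.0286). The cluster's distance from its matched flanks was -5.28 ± 0.52 in lingonberry livers and -4.82 ± 0.40 in HFD livers, a difference of -0.46 (SE 0.33) that did not pass the test (exact p = 0.20, adjusted p = 0.314). It passed without sites of shared tags, at -0.72 (exact p = 0.0286), and had the opposite sign, 0.81, with a minimum of 1 MspI tag (exact p = 0.0286).

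Isolated cluster sites averaged 14.8 ± 0.50 in lingonberry livers and 17.6 ± 1.63 in HFD livers, a difference of -2.76 (exact p = 0.0286, adjusted p = 0.0786). Isolated sites of the other autosomes averaged 17.6 ± 0.43 in lingonberry livers and 20.4 ± 1.27 in HFD livers, a difference of -2.80 (exact p = 0.0286). The diet difference of the cluster minus these sites was 0.044 (SE 0.20, exact p = 0.857). Depth and the yield of isolated sites tended to differ between the diets, although both overlapped. Whether they cause the diet difference was not tested. Per 1000000 HpaII tags of a library, isolated unmethylated sites of the genome gave 0.86, 0.93, 1.01 and 0.79 times the mean of the 8 livers in lingonberry livers, against 1.09, 1.14, 1.23 and 0.95 in HFD livers. Such factors are taken from the same 8 livers. Dividing by them takes out yield differences between the diets and does not test their source. After division by such factors for local site density, the cluster's diet difference was -0.53 (exact p = 0.343) and that of its isolated sites was -0.045 (exact p = 0.914). After thinning all libraries to 5877080 tags it was -2.71 (exact p = 0.0286). With a minimum of 1 MspI tag it was -0.96 (exact p = 0.20), and without lingonberry liver 2 it was -2.32 (exact p = 0.0857).

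In classes of score, the diets stood apart below 25 and from 25 to 75 and overlapped at the unmethylated end. Below 25 lay 77.8% ± 0.26 of cluster sites in lingonberry livers and 72.3% ± 2.59 in HFD livers (exact permutation test, n = 4 each, p = 0.0286, adjusted p = 0.0786). From 25 to 75 lay 20.1% ± 0.84 in lingonberry livers and 25.1% ± 2.36 in HFD livers, with the same p. At 75 or above lay 2.096% ± 0.98 in lingonberry livers and 2.66% ± 0.44 in HFD livers (exact p = 0.40). Without any HpaII tag were 42.3% ± 9.57 of cluster sites in lingonberry livers and 44.9% ± 1.53 in HFD livers (exact p = 0.657). Counted without the MspI reference, the readable cluster sites gave 119.7, 121.6, 140.4 and 122.4 tags per 1000000 HpaII tags in lingonberry livers, against 143.1, 154.8, 169.7 and 137.6 in HFD livers. The log2 ratio was -0.26 (SE 0.086), and the groups overlapped (exact p = 0.0571). Relative to the matched flanks the log2 ratio was -0.12 (exact p = 0.114).

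In the 1 Mb bins, 4 of the 5 bins of the cluster passed as lower with lingonberries (limma, Benjamini-Hochberg adjusted p below 0.05), and 0 passed as higher. Of all 2539 bins, 57.2% passed as lower, and of the 774 similarly isolated autosomal bins 84.1% did, so the cluster's count is near its background. The bin from 85000001 had the largest difference of the 5, with 18.1 ± 1.26 in lingonberry livers and 21.4 ± 1.64 in HFD livers (-3.32, SE 0.86, limma adjusted p = 0.0028). The bin from 86000001 did not pass, with 13.0 ± 1.33 in lingonberry livers and 13.5 ± 0.82 in HFD livers (-0.52, limma adjusted p = 0.63). The median difference was -2.84 over the 5 bins, -2.74 over the 774 similarly isolated bins and -1.67 over all bins. Only 1 of the 5 bins had groups that did not overlap, against 41.3% of all bins. With the factors for local site density 0 of the 5 passed, and without HFD liver 3 only 1 did.

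No single site of the cluster passed the test for diet. Of its 1029 sites, 0 passed in either direction (limma with a mean trend, adjusted over all 1310003 sites), where 0.00397% of all sites passed as higher and 0.00947% as lower with lingonberries (0.0134% in either direction). At an unadjusted p below 0.05 there were 16 higher and 19 lower cluster sites, together 3.4% against 4.17% of all sites. Limma without a trend, limma on sites with at least 10 MspI tags and limma on log2 tags per 1000000 also gave 0. Of the 489 readable sites, 261 (53.4%) had a lower mean with lingonberries, against 51.3% of all such sites. A higher mean was seen at 178 (36.4%), against 41.7% of all such sites. The means were equal at the 50 sites (10.2%) without a tag in any liver, which could not differ, and 6.97% of all readable sites had equal means. The median difference was -0.9996, against -0.24 over all readable sites. Among sites with a mean of at least 5 tags, the smallest p for a lower score was at chr2:87278039. It scored 21.0, 17.1, 16.8 and 6.84 in lingonberry livers, against 32.0, 25.5, 44.7 and 34.1 in HFD livers. The groups did not overlap there, yet the difference of -18.6 (SE 7.02) had a limma adjusted p of 0.873.

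The next lower sites by p were chr2:86505079, at -19.4 (SE 9.22), and chr2:87793586, at -13.3 (SE 6.70). In the other direction the 3 smallest p were at chr2:85037915, at 6.33 (SE 5.70), chr2:87366244, at 2.18 (SE 2.02), and chr2:85400548, at 7.94 (SE 9.45). Each of these 5 had a limma adjusted p of 0.873 or above. At chr2:85687449 all 4 HFD livers had a tag and no lingonberry liver did, with 0 HpaII tags in lingonberry livers and 8 in HFD livers. It is the single readable cluster site with that pattern (0.204%), which 0.0619% of all readable sites show, and its limma adjusted p was 0.873.

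Sites near the distal border were listed in mirrored pairs. From chr2:90012916 to chr2:90073527, all 22 listed sites had a partner at the exact mirror position in chr2:90153481-90214092, beyond the end of the cluster for 7 of them. The layout is that of an inverted repeat with arms of at least 60.6 kb and 80.0 kb between them, and the mm9 sequence itself was not used here. For 18 of the 22 pairs the MspI and HpaII tags were the same in all 8 libraries within 0.02 tags, and within the cluster 15 pairs had this centre, against 4 at the next most common centre. Members of such a pair are 1 measurement listed at 2 positions, and their scores cannot be assigned to an arm. Without sites of shared tags the cluster still differed from matched flanks by -4.98 (exact p = 0.0078).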

How the data were processed

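Each deposited file held 1 liver and gave, per the file headers, an m-score and a conf signal for each HpaII site on mm9. Per the submitters' processing notes CASAVA was used, with no version; the sources used here do not give the tag aligner or filters. From the values, the deposited score is the angle, and the deposited signal the length, of the vector of MspI and HpaII tags. HpaII tags were recovered as its sine component, and were whole within 0.02 at 96.6% to 97.1% of sites above 0 across the genome and at 85.0% to 90.2% in the cluster. The single MspI reference had 29676310 tags.

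Depth was 5877080 to 16076961 HpaII tags per library. Members, lists and tests were chosen with earlier results of these data known. Sites with at least 10 MspI tags entered levels. Flank sites were weighted by neighbours (0, 1, 2, 3, 4, 5 or more within 500 bp). Diets were compared by two-sided exact permutation (70 assignments, smallest p 0.0286) and places by exact sign-flip tests (256, smallest p 0.0078), with Benjamini-Hochberg adjustment over 11 and 10 comparisons. Single sites and 1 Mb bins with at least 50 sites were fitted over the whole genome with limma 3.58.1 in R 4.3.3. The same fits were also run on simulated data, and their outcome is not given here. Other steps used Python 3.11.15, numpy 2.4.6 and pandas 2.3.3. Factors for local site density came from 104163 readable, unshared sites whose mean m-score was at least 75.

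Named sites are those past the threshold, the 10 highest unshared sites, and the 3 with the smallest p in each direction among sites with a mean of at least 5 tags. The site chr2:85687449, the runs and the mirrored sites were chosen after their values were seen. Other minima of MspI tags, pooled tags, thinning, other flanks and windows, and leaving out each liver were tried as alternatives. The labels do not say whether mice shared cages, litters or days, so p-values cover the spread among these 8 livers.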

Additional observations from a re-analysis of the deposited data

Results flagged for a closer look

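In groups of 4, a value was marked when the gap to its nearest neighbour, divided by the range, exceeded the 95% limit for an outlying value. Of 86 groups examined 7 were marked, and chance marks about 4.3.

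For the mean m-score of the cluster, lingonberry liver 2 (14.2) lay below the other lingonberry livers (14.8 to 14.9), with a gap of 0.845 of the range. For log2 HpaII tags of the cluster per 1000000, lingonberry liver 3 (7.13) lay above the other lingonberry livers (6.90 to 6.94), with a gap of 0.860. For the same tags over the matched flanks, HFD liver 3 (-0.86) lay above the other HFD livers (-0.9996 to -0.99), with a gap of 0.940. For the percentage of sites without a tag, cluster minus matched flanks, HFD liver 2 (5.45) lay below the other HFD livers (7.28 to 7.37), with a gap of 0.957. In the 1 Mb bin from 87000001, lingonberry liver 2 (14.7) lay above the others (12.7 to 13.0), with a gap of 0.847. At chr2:85092999, HFD liver 1 (86.2) lay below the others (89.5 to 89.8), with a gap of 0.916. At chr2:85860692, lingonberry liver 2 (71.1) lay below the others (86.3 to 88.6), with a gap of 0.865. Lingonberry liver 2 is the outlying one in 3 of the 7.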

How the results depend on the processing

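Cluster minus matched flanks kept its direction and its exact p at or under 0.05 in all 22 alternatives, between -14.73 and -3.09, and so did edges minus interior in all 13 that gave a value (no edge site had 50 MspI tags). Both added comparisons of sites with neighbours also kept theirs. Diet comparisons depended on more choices, and where no value is given for a cause, the cause was not tested.

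With a minimum of 1 MspI tag the diet difference was -0.96 for the cluster, -1.26 for isolated sites, 2.23 points for the share below 25 and -1.91 points for the share from 25 to 75, none past the threshold. The diet differences of cluster minus flanks turned sign, at 0.81 for all and 1.04 for isolated sites. A minimum of 50 MspI tags left 14 cluster sites. The diet differences were then -5.92 (cluster), -8.98 (isolated), 19.6 and -19.6 points (shares below 25 and from 25 to 75), none past the threshold, and -4.64 for cluster minus matched flanks, which passed. There, isolated sites turned sign against flanks (5.92) and other autosomal sites (5.38), and the diet difference of the last comparison was -5.99. The shares against matched flanks were 7.88 points below 25, -0.98 points from 25 to 75 and -1.68 points without a tag.

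Without shared tags the diet difference of cluster minus matched flanks was -0.72 and passed, and that of isolated sites minus other autosomal sites was -0.36. Pooled tags gave -3.81 for the cluster and -4.38 for isolated sites by diet (exact p = 0.0571 for both), and 0.012 for the diet difference of isolated sites minus flanks. Thinning gave 0.055 for that difference and 5.27 points for sites without a tag by diet. Density factors gave -0.53, -0.045, 2.096 and -1.84 for the cluster, isolated sites and the 2 lower classes by diet, and -0.042 against other autosomal sites. They left 0 bins called. The bins then differed by -1.21, 0.99, -1.36, -0.082 and -1.05.

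Against the proximal flank the isolated difference was -0.058 and the share from 25 to 75 differed by -0.98 points. Log2 tags over matched flanks by diet passed at -0.12 against the proximal flank, -0.11 with a match for MspI tags and -0.14 for the interior against the proximal flank. Without a match for neighbours the diet difference of cluster minus flanks was -1.48 and passed. The diet difference of isolated sites minus other autosomal sites was -0.16 with neighbours within 1000 bp and -0.028 in the interior.

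Leaving out each liver gave -2.85 to -1.90 for the cluster by diet, with exact p up to 0.0857, and -3.21 to -2.01 for isolated sites. For isolated sites and for the shares below 25 and from 25 to 75, 4 of the 8 leave-outs did not pass (exact p up to 0.0571). The shares ran over 4.28 to 6.32 points below 25, -5.76 to -3.85 points from 25 to 75 and -7.11 to 0.19 points without a tag. Log2 tags ran over -0.31 to -0.20 per 1000000 and -0.16 to -0.089 over flanks. The lowest exact p among the leave-outs was 0.0286 for both log2 results and for the share without a tag. The diet difference of isolated sites minus other autosomal sites ran over -0.050 to 0.23, at -0.0091 without lingonberry liver 4 and -0.010 without HFD liver 1. Single sites called were 0 to 2 higher and 0 to 1 lower, and bins called lower 1 to 4. The bin from 86000001 ran over -0.94 to 0.086, above 0 without lingonberry liver 2. No paired analysis was possible because the labels give no number that pairs livers between diets. Depth differed between sites: the readable cluster sites had a median of 0 or 1 HpaII tag per liver, and 53 cluster sites averaged at least 5.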
